A study of Mus musculus with 23 samples.

Results

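The RGS genes encode regulators of G protein signalling, and 7 of them (Rgs1, Rgs2, Rgs3, Rgs14, Rgs16, Rgs18 and Rgs19) were followed here among the 21878 genes listed for mouse neutrophils. The members were selected on their measured FPKM levels in these same sorted libraries, across tissues and genotypes, so those differences are given as a description without p-values. Neutrophils were sorted as CD45+CD11b+Ly6G+ cells from BM, PB and perfused lung of WT mice, with 3 libraries per tissue (tissue comparison). A further experiment (Piezo1 experiment) set WT against Piezo1-cKO mice in lung neutrophils and in PB neutrophils, with 2 libraries in each of the 4 groups. The last experiment held whole lungs, not sorted cells, of WT mice given an isotype control or an anti-Ly6G antibody that depletes neutrophils, with 3 libraries each. By the paper's methods the mice were adults of both sexes, and the study used C57BL/6J mice. The paper also depleted neutrophils at an early age, and it does not give a separate age for the whole lung mice. In the cKO, Vav1-iCre recombined a floxed Piezo1 allele (Piezo1 fl/fl) in all blood cell lineages, so the deletion was not limited to neutrophils. The labels do not say whether the WT mice of the Piezo1 experiment carried the floxed allele. The libraries of the tissue comparison are counted as separate mice in the description of that experiment. For the Piezo1 and whole lung libraries the labels do not say whether those of a group came from separate animals, so p-values there measure the spread between libraries, which may be partly technical.

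When a chemoattractant binds its receptor on a neutrophil, the receptor loads GTP onto a G alpha subunit, and the free G beta gamma dimer then drives phosphoinositide 3-kinase gamma, phospholipase C beta and directed migration. RGS proteins bind the GTP-loaded G alpha subunit and speed up its GTP hydrolysis, which shortens the signal. In leukocytes they are known as brakes on chemokine-driven adhesion and migration. RGS1, RGS3 and RGS16 act on the Gi and Gq families, RGS2 prefers Gq, and RGS18 is best known from platelets and other blood cells. RGS19, also called GAIP, binds Gi family subunits. RGS14 joins its RGS domain to Ras-binding domains and to a GoLoco motif that holds inactive Gi subunits. All 7 members carried the gene ontology term GTPase activator activity in the deposited annotation.

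Positions are those of the RefSeq annotation of GRCm38.p6. Rgs2 (chr1:143999338-144004149), Rgs1 (chr1:144244669-144249104) and Rgs18 (chr1:144752683-144775427) lie together with Rgs13 and Rgs21 in a stretch of 776.1 kb that holds 5 protein-coding genes, all of them RGS genes. Rgs16 (chr1:153740353-153745468) lies farther along the same chromosome, 42.7 kb from Rgs8. Rgs19 (chr2:181688419-181694537), Rgs3 (chr4:62559835-62703019) and Rgs14 (chr13:55369732-55384687) lie on other chromosomes. In the tissue comparison the neighbours Rgs2, Rgs1 and Rgs18 had their highest levels in PB, lung and BM, respectively, so members of the cluster did not share a tissue order.

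Promoter windows were listed for 4 of the 7 members, and 3 are shown because these genes follow different courses below: Rgs2 peaks in PB, Rgs19 peaks in BM, and Rgs16 has almost no reads in neutrophils. Each is the 250 bases before a RefSeq transcription start (GRCm38.p6), on the strand of the gene, with matches to the motifs searched in capitals.
Rgs2, chr1:144004150-144004399, minus strand: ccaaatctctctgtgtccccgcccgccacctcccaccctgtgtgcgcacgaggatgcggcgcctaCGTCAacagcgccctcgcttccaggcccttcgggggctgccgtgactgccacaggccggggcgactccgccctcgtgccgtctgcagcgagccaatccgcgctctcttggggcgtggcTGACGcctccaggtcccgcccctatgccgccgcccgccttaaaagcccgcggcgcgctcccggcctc
Rgs19, chr2:181693978-181694227, minus strand: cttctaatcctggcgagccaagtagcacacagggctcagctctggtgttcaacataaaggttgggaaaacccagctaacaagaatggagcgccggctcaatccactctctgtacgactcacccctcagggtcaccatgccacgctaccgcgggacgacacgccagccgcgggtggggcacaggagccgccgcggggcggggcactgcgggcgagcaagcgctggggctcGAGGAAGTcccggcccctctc
Rgs16, chr1:153740103-153740352, plus strand: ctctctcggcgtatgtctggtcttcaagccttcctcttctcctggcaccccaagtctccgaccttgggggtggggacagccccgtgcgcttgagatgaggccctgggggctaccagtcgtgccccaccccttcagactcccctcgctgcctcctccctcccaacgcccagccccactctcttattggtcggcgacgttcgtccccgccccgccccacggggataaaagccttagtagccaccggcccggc

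The motifs searched on both strands were the cAMP response element (CRE) TGACGTCA and its short form TGACG, which lies inside it, the AP-1 motif TGANTCA, the PU.1 motif GAGGAAGT, the TATA box TATAAA and the NF-kB motif. The Rgs2 window held the short CRE form at 185 and 67 bases before the start, a match that 17.8% of all 32851 promoter windows hold at least once. The Rgs19 window shown held the PU.1 motif at 21 bases before the start, as 2.44% of all windows do. It is window 1 of 3 listed for Rgs19. Window 2 overlaps it and held the motif at 188 bases before its own start, and window 3 held none of the 6 motifs. The Rgs16 window held none of the 6 motifs. Both Rgs3 windows held a TATA box, as 12.4% of windows do. These matches describe the letters and do not mark binding sites.

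Between 16502153 and 19330794 reads on genes lay behind each library of the tissue comparison, and between 9621088 and 15034742 behind each of the Piezo1 experiment. Levels are given as FPKM, in which fragments are divided by transcript length and by library size, so that it is a level per length that allows genes to be compared within a library. The length used for Rgs3 was 11846 bases, which joins several isoforms and lowers its FPKM if neutrophils make a short one; the other members ranged from 1330 to 3184 bases. All 8 neutrophil markers were detected in every sorted group, and Ly6g ranged from 50.6 to 781 FPKM. T and NK cell markers summed to at most 6.53 FPKM and B cell markers to at most 0.945 FPKM in every sorted library. Monocyte and macrophage markers summed to 60.4 to 174 FPKM, and only 2 of the 8 had a mean of at least 1 FPKM in PB and lung. Endothelial markers summed to at most 3.39 FPKM, platelet markers to at most 4.06 FPKM and epithelial markers to at most 24.1 FPKM. The pericyte list (14.3 to 43.6 FPKM) and the eosinophil, basophil and mast cell list (6.65 to 26.1 FPKM) each had only 1 gene with a mean of at least 1 FPKM in each sorted group. Erythroid markers are given below beside the PB genotypes. The library PB replicate 3 of the tissue comparison differed most from its group, with a chi-square per degree of freedom of 24.6 and 41.0 against the other PB libraries, where the pairs of other groups reached at most 4.77. Piezo1 itself had 3 to 10 reads per library in the Piezo1 experiment, with 4 to 7 in lung cKO and 8 in each lung WT library, too few to check the genotype labels.

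The first question was how RGS transcripts are distributed over the tissues through which neutrophils pass. Rgs1 went up from BM to PB to lung. Rgs2 and Rgs3 peaked in PB. Rgs18 and Rgs19 were highest in BM and lowest in lung, and Rgs14 overlapped between PB and BM and was low in lung. Rgs16 was close to absent. By the limma fit on log2(FPKM + 1) (called at an adjusted p under 0.05 with a log2 fold change beyond 1 in either direction), all 6 members tested were called between lung and PB, Rgs1 higher and 5 lower. Among all 7577 genes tested in that comparison 27.2% were called, 7.75% higher and 19.5% lower in lung. The median gene tested was itself lower in lung, by 0.54 on the log2 scale, so the lung against PB values below are also given relative to that median.

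**Figure D1:**
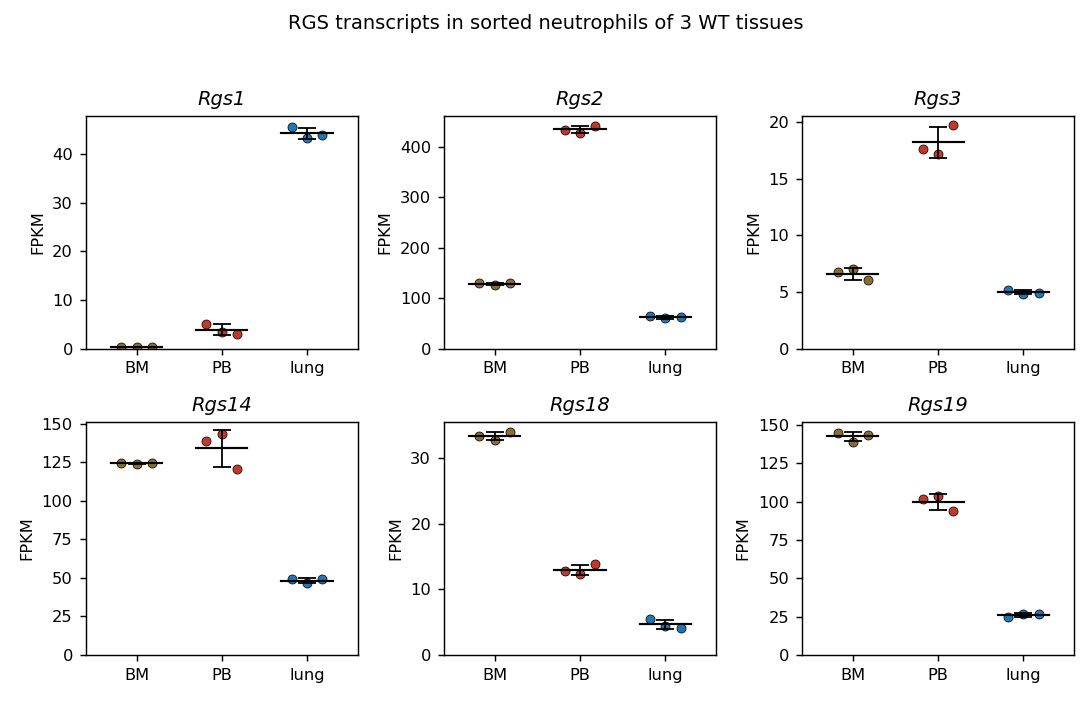
FPKM (vertical axis, linear, starting at 0) of 6 RGS genes in each library of sorted WT neutrophils from BM, PB and lung; points are libraries, lines are means and bars are SD (n = 3). Rgs1 is highest in lung, Rgs2 and Rgs3 in PB, and Rgs18 and Rgs19 in BM.

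Rgs1 had 0.314, 0.311 and 0.409 FPKM in the BM libraries, from 8, 8 and 10 reads. In PB it had 5.14, 3.43 and 3.11 FPKM, and in lung 45.5, 43.2 and 44.0 FPKM. No library of a tissue overlapped with those of another, as held for 86.2% of genes when lung was set against PB, 92.9% when it was set against BM, and 76.8% in the comparison of PB with BM. The mean of 44.2 ± 1.16 FPKM in lung (SD, n = 3) was 11.4 times that in PB and 128 times that in BM. On the log2(FPKM + 1) scale lung exceeded PB by 3.23 (SE 0.139), or by 3.77 relative to the median gene. It exceeded BM by 5.07 (SE 0.057), and PB exceeded BM by 1.84 (SE 0.146). The pseudocount compresses the last of these, since edgeR on the recovered reads put PB above BM by 3.59 and lung above BM by 7.78.

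Rgs2 was the most abundant member in blood. Its values were 130, 126 and 130 FPKM in BM, 433, 428 and 441 FPKM in PB, and 65.4, 60.0 and 62.4 FPKM in lung, with no overlap between tissues. With a mean of 434 ± 6.80 FPKM (SD, n = 3) it ranked 141 of 21878 genes in PB. Lung was lower than PB by a log2 fold change of -2.77 (SE 0.052), or -2.24 relative to the median gene, and lower than BM by -1.03 (SE 0.034). The drop below BM was close to that of the median gene: relative to the median it was -0.33, and edgeR with TMM scaling gave -0.24, which was no longer called.

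Rgs3 followed the course of Rgs2 at a lower level. It had 6.79, 7.04 and 6.04 FPKM in BM, 17.6, 17.2 and 19.8 FPKM in PB, and 5.20, 4.83 and 4.96 FPKM in lung. Lung differed from PB by -1.68 (SE 0.073) on the log2 scale, or by -1.14 relative to the median gene, and PB from BM by 1.33 (SE 0.080). Lung and BM were not called different (-0.35, SE 0.068), and the sign of that difference depended on the scaling, since edgeR with TMM gave 0.39.

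Rgs19 and Rgs18 fell along the route from BM. The BM libraries held 145, 139 and 144 FPKM of Rgs19, the PB libraries 102, 104 and 94.2 FPKM, and the lung libraries 24.9, 26.9 and 27.0 FPKM. Rgs18 had 33.3, 32.7 and 33.9 FPKM in BM, 12.7, 12.3 and 13.8 FPKM in PB, and 5.42, 4.45 and 4.11 FPKM in lung. For neither gene did libraries of different tissues overlap. Lung against BM gave -2.40 (SE 0.037) for Rgs19 and -2.61 (SE 0.077) for Rgs18, or -1.70 and -1.90 relative to the median gene. The larger step lay between PB and lung for Rgs19 (-1.89, against -0.51 from BM to PB, which was not called), whereas Rgs18 gave -1.30 from BM to PB and -1.31 from PB to lung. Relative to the median gene the lung against PB values were -1.35 for Rgs19 and -0.77 for Rgs18, and the BM to PB step of Rgs18 was -1.18.

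Rgs14 had 124, 124 and 125 FPKM in BM and 139, 143 and 121 FPKM in PB, so that these tissues overlapped (log2 fold change of 0.10, SE 0.070, not called). The lung libraries lay apart at 49.1, 46.5 and 49.4 FPKM. Lung was lower than PB by -1.45 (SE 0.073) and lower than BM by -1.35 (SE 0.030). Relative to the median gene these were -0.91 and -0.64, and edgeR with TMM (-0.85 and -0.56) no longer called either. Rgs18 between lung and PB was likewise not called by edgeR with TMM (-0.85).

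Rgs16 had 1, 1 and 0 reads in the BM libraries, 0 in each PB library and 1, 0 and 0 in lung. It had 0 reads in all 8 libraries of the Piezo1 experiment, where the limit set by finding none is 3 reads per library. It passed the filter of at least 1 FPKM in no sorted comparison, and no fold change is given. The other 14 RGS genes were near the same floor: in sorted neutrophils Rgs10 was the only one of them to reach a mean of 0.5 FPKM in any group, with at most 32 reads in a library. The RGS transcripts of neutrophils were thus almost entirely those of the 6 remaining members.

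In all, 5 of 6 members tested were called between lung and BM, 1 higher and 4 lower, where 45.9% of 8236 genes were called, 9.86% higher and 36.0% lower. Between PB and BM 4 of 6 were called, where 22.0% of 8237 genes were called. The 2 members not called between PB and BM were Rgs14 and Rgs19. Counts between lung and BM shrank to 3 under every scaling that moved the median gene to 0, with Rgs1, Rgs18 and Rgs19 left.

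The order of the members within a tissue differed as well. In BM it was Rgs19, Rgs2, Rgs14, Rgs18, Rgs3 and Rgs1, and in PB Rgs2, Rgs14, Rgs19, Rgs3, Rgs18 and Rgs1, with no overlap of libraries between neighbours. In lung Rgs2 was followed by Rgs14, Rgs1, Rgs19, Rgs3 and Rgs18, and only Rgs3 and Rgs18 overlapped.

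Shares of the summed FPKM of all 21 RGS genes within a library do not depend on how libraries are scaled against each other. Rgs1 made up 0.0788% ± 0.0124 of that sum in BM, 0.552% ± 0.150 in PB and 23.0% ± 0.172 in lung (SD, n = 3). Rgs2 made up 29.5% ± 0.119, 61.7% ± 1.74 and 32.6% ± 0.680 in the same tissues. Rgs19 went from 32.7% in BM to 14.2% in PB and 13.7% in lung. The share of Rgs14 was 28.5% in BM, 19.1% in PB and 25.2% in lung. Rgs2 mRNA per length exceeded Rgs1 mRNA by 318 to 416 times in the BM libraries, by 84.2 to 142 times in PB and by 1.39 to 1.44 times in lung. The summed level itself was 437 ± 5.70 FPKM in BM, 704 ± 9.06 in PB and 192 ± 4.37 in lung, so the lung had the least RGS mRNA in total and the most Rgs1.

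**Figure D2:**
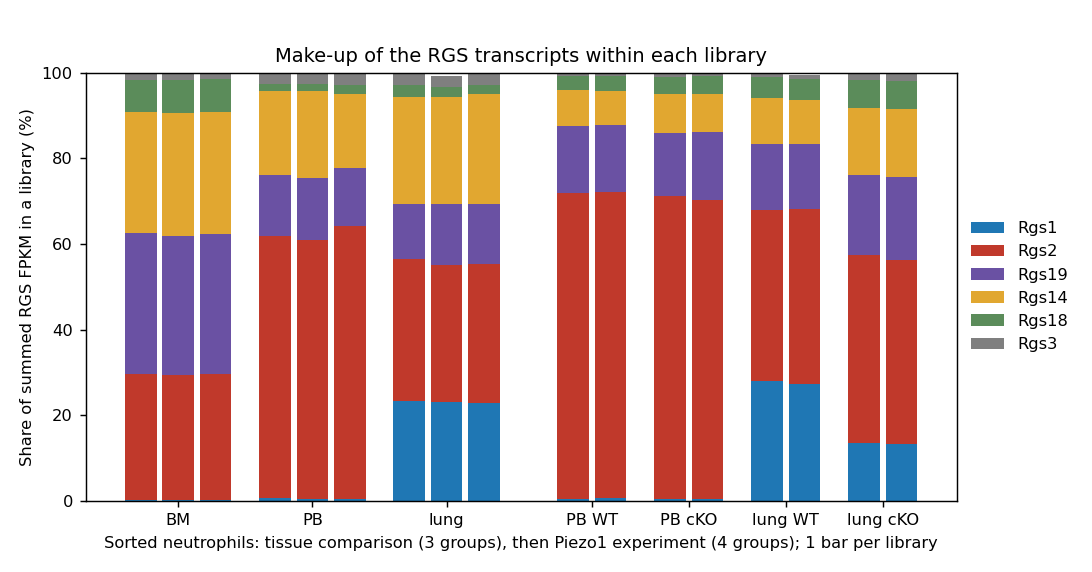
Share (%) of each RGS gene in the summed FPKM of all 21 RGS genes, with 1 stacked bar per library of sorted neutrophils, for the tissue comparison on the left and the Piezo1 experiment on the right. Rgs1 takes 22.9% to 23.2% in the lung libraries of the tissue comparison, 27.3% to 27.9% in lung WT and 13.3% to 13.4% in lung cKO of the Piezo1 experiment, and under 1% in every PB and BM library.

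The Piezo1 experiment gave the lung against PB comparison again in other libraries, in each genotype. All 6 members tested were called in both genotypes, with the directions seen in the tissue comparison; 34.0% of 7143 genes were called in WT and 30.9% of 7163 in cKO. In WT the log2 differences were 3.52 (SE 0.076) for Rgs1, -2.88 (SE 0.022) for Rgs2, -2.08 (SE 0.030) for Rgs19, -1.70 (SE 0.040) for Rgs14, -1.48 (SE 0.079) for Rgs3 and -1.46 (SE 0.047) for Rgs18. The median gene stood at -0.62. In cKO they were 2.62 for Rgs1, -2.96 for Rgs2, -1.95 for Rgs19, -1.57 for Rgs18, -1.42 for Rgs14 and -1.004 for Rgs3, with the median gene at -0.54. After FPKM were rescaled so that the median gene stood at about 0, Rgs1, Rgs2 and Rgs19 remained called in each genotype, and Rgs3, Rgs14 and Rgs18 did not. The call for Rgs3 in cKO was at the threshold and was lost without lung cKO replicate 1 (-0.93).

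**Figure D3:**
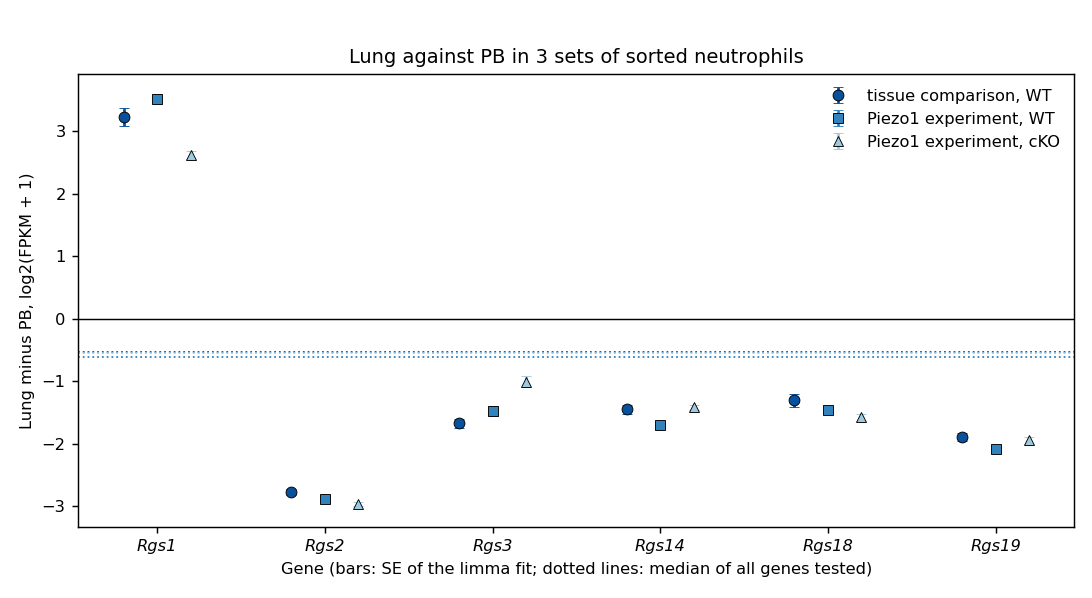
Lung minus PB on the log2(FPKM + 1) scale for 6 RGS genes in the WT tissue comparison (circles, n = 3 per tissue) and in WT (squares) and Piezo1-cKO (triangles) neutrophils of the Piezo1 experiment (n = 2 per tissue); bars are SE and dotted lines the median of all genes tested. Rgs1 is the only gene above 0, from 2.62 to 3.52, and Rgs2 is the lowest, from -2.77 to -2.96.

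Levels in PB differed between the experiments in both directions. The PB WT libraries held 979 and 986 FPKM of Rgs2, 213 and 215 FPKM of Rgs19 and 45.3 and 46.2 FPKM of Rgs18, against means of 434, 99.9 and 13.0 FPKM in PB of the tissue comparison. Rgs3 and Rgs14 were lower there, with means of 10.7 and 114 FPKM in PB WT against 18.2 and 134 FPKM in the tissue comparison. The tables of the 2 experiments were made separately, and this difference was not tested.

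The second question was whether the RGS transcripts of neutrophils differ between WT and Piezo1-cKO mice. Rgs1 was the member that stood out, and it did so in lung. The lung WT libraries held 91.1 and 89.5 FPKM, from 1805 and 1789 reads, and the lung cKO libraries 38.2 and 38.4 FPKM, from 749 and 728 reads. The mean in WT was 2.36 times that in cKO, a log2 difference of 1.22 (SE 0.036) between WT and cKO. Rgs1 was the 1 member of 6 called, where 0.995% of 6434 genes were called and 0.202% were called higher in WT. In PB the gene had 6.39 and 7.61 FPKM in WT and 5.39 and 5.36 FPKM in cKO. These did not overlap, as held for 77.3% of 7256 genes. The difference in PB was smaller, at 0.32 (SE 0.098), and was not called. The Rgs1 level of lung cKO neutrophils stayed 7.13 times that of PB cKO neutrophils.

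**Figure D4:**
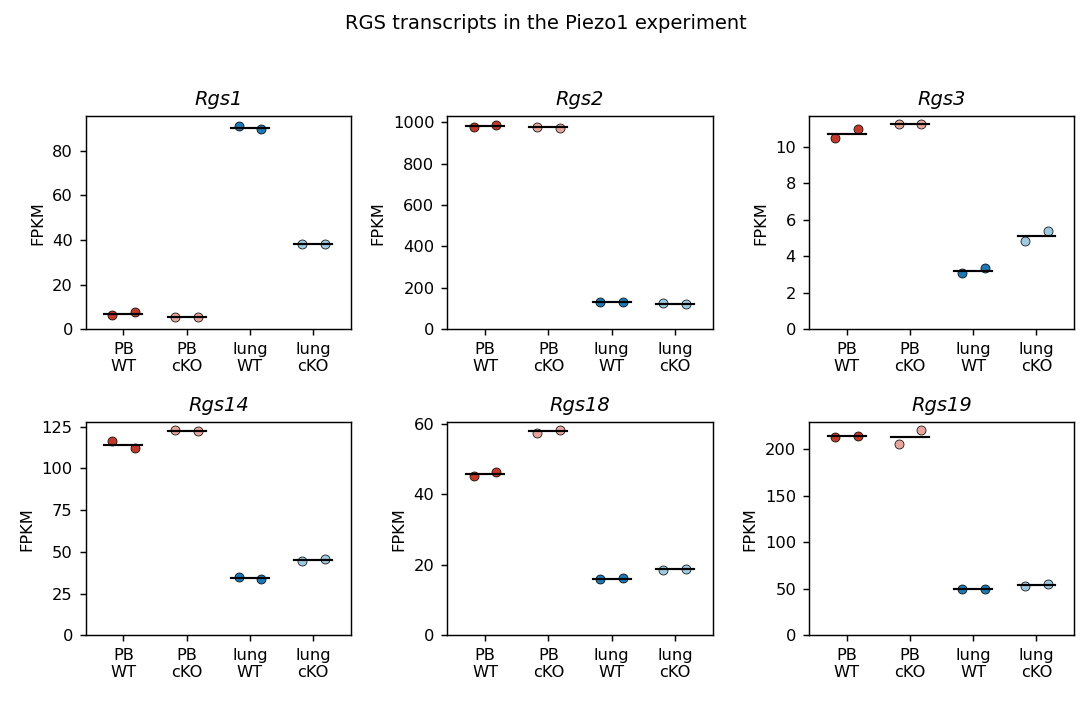
FPKM (vertical axis, linear, starting at 0) of 6 RGS genes in each library of the Piezo1 experiment, with neutrophils from PB and lung of WT and Piezo1-cKO mice; points are the 2 libraries of a group and lines their means. Rgs1 falls from 91.1 and 89.5 FPKM in lung WT to 38.2 and 38.4 FPKM in lung cKO, while Rgs2 stays between 123 and 134 FPKM in lung.

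The other members differed by less in lung. Rgs3 had 3.08 and 3.36 FPKM in lung WT and 4.83 and 5.42 FPKM in lung cKO, a log2 difference of -0.54 (SE 0.094). Rgs14 had 35.0 and 33.7 FPKM in WT and 44.6 and 45.9 FPKM in cKO (-0.39, SE 0.044). Rgs18 had 15.9 and 16.2 FPKM against 18.6 and 19.0 FPKM (-0.21, SE 0.053), and Rgs19 had 50.0 and 49.6 FPKM against 53.3 and 55.5 FPKM (-0.13, SE 0.040). Rgs2 had 131 and 134 FPKM in WT and 125 and 123 FPKM in cKO (0.09, SE 0.030). The median gene tested stood at -0.09. Relative to it the values were -0.44 for Rgs3, -0.30 for Rgs14, -0.12 for Rgs18, -0.03 for Rgs19 and 0.18 for Rgs2. The groups did not overlap for any of the 6, which was also true of 76.6% of all genes tested, and none of these 5 reached the fold change threshold. Without that threshold all 6 passed the adjusted p, as 50.7% of genes did.

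Rgs1 was thereby next to Rgs2 at the top of the members in lung WT, and behind Rgs2, Rgs19 and Rgs14 in lung cKO. Its share of the RGS sum was 27.6% in lung WT and 13.4% in lung cKO. In the same libraries the shares of Rgs14 (10.5% and 15.8%), Rgs19 (15.2% and 19.0%) and Rgs18 (4.90% and 6.55%) were larger in cKO. That of Rgs2 was 40.5% and 43.4%. Shares are parts of a whole, so a smaller Rgs1 share by itself makes the other shares larger. The mean FPKM in lung cKO was 1.32 times that in lung WT for Rgs14, 1.17 times for Rgs18, 1.09 times for Rgs19 and 0.939 times for Rgs2.

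None of the 6 members was called between genotypes in PB by limma, edgeR or DESeq2, where limma called 3.65% of 7256 genes. The largest difference was that of Rgs18, with 45.3 and 46.2 FPKM in PB WT and 57.4 and 58.3 FPKM in PB cKO (-0.33, SE 0.050). With the adjusted p alone Rgs1 and Rgs18 passed, as 49.7% of genes did. Rgs2 had 979 and 986 FPKM in WT and 978 and 974 FPKM in cKO (0.01, SE 0.035). The libraries of Rgs19 overlapped, with 213 and 215 FPKM in WT and 205 and 220 FPKM in cKO. Rgs14 had 116 and 112 FPKM against 123 and 122 FPKM, and Rgs3 had 10.5 and 11.0 FPKM against 11.3 and 11.2 FPKM. Erythroid markers differed between these groups: they summed to 24.9 to 26.8 FPKM in PB WT and 1011 to 1136 FPKM in PB cKO. They summed to 5.11 to 5.12 FPKM in lung WT and at most 1.70 FPKM in lung cKO. The part of erythroid RNA in the PB values was not tested. Rgs10 was the 1 gene of the other RGS list tested in PB, with 0.159 and 0.181 FPKM in WT and 1.18 and 1.74 FPKM in cKO, from at most 21 reads.

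The interaction of genotype and tissue (the WT minus cKO difference in lung less that in PB, called on the adjusted p alone) was called for 3 of 6 members, where 48.2% of 7560 genes were called. These were Rgs1 (0.89, SE 0.102), Rgs3 (-0.47, SE 0.109) and Rgs14 (-0.28, SE 0.058). Rgs18 (0.12, SE 0.064), Rgs2 (0.08, SE 0.039) and Rgs19 (-0.13, SE 0.060) were not called. The genotype difference had the same direction in both tissues for every member tested except Rgs19 (-0.13 in lung and 0.009 in PB).

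**Figure D5:**
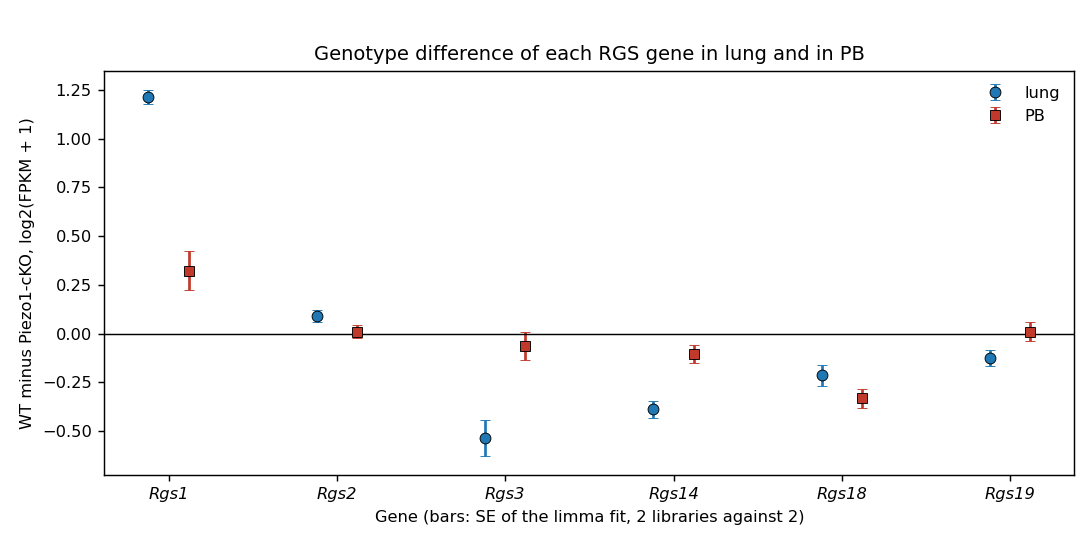
WT minus Piezo1-cKO on the log2(FPKM + 1) scale for 6 RGS genes in lung (circles) and PB (squares) neutrophils; bars are SE of the limma fit with 2 libraries per group. Rgs1 in lung stands at 1.22 and every other value lies between -0.54 and 0.32.

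Whole lungs were measured with and without neutrophil depletion, and adjusted p-values are given here because the rule for the members names tables of sorted neutrophils and not these libraries, although earlier results of the whole series were known when the members were chosen. In whole tissue, fewer cells of a type and less RNA per cell cannot be told apart. The 8 neutrophil markers summed to 205 to 260 FPKM in control lungs and 43.0 to 122 FPKM in depleted lungs, whereas Piezo1 lay at 13.4 to 15.3 and 14.3 to 15.5 FPKM. No member was called among the 5 that passed the filter. The rule was a limma adjusted p under 0.05 with a log2 fold change beyond 0.5 in either direction. By that rule 0.00715% of 13990 genes were called, a count of 1. None of the 7 neutrophil markers tested was called either (list median -1.33, beside -0.04 for all genes). The lack of a call therefore does not show that a member was unchanged by depletion. Rgs2 and Rgs3 had an unadjusted limma p under 0.05, and the share of all genes with such a value was not counted.

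Rgs2 had 22.8, 15.1 and 14.9 FPKM in control lungs and 13.5, 13.5 and 10.9 FPKM in depleted lungs. Every depleted library lay below every control library, as was true of 11.8% of all genes, with a log2 fold change of -0.43 (SE 0.171, limma adjusted p = 0.419). Rgs3 went from 7.58, 7.52 and 5.87 FPKM to 5.68, 5.74 and 5.48 FPKM, also without overlap (-0.26, SE 0.106, limma adjusted p = 0.426). Rgs14 had 2.33, 3.32 and 3.01 FPKM against 2.59, 2.03 and 1.18 FPKM (-0.43, SE 0.198, limma adjusted p = 0.480). Rgs18 (1.42 to 1.98 FPKM in control and 1.43 to 1.97 FPKM in depleted lungs) and Rgs19 (6.35 to 8.53 and 6.44 to 8.89 FPKM) overlapped almost fully. These had limma adjusted p-values of 0.944 and 0.991.

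Rgs1 and Rgs16 stayed below 1 FPKM in whole lung and were not tested. Rgs1 had 0.189, 0.222 and 0.302 FPKM in control and 0.394, 0.216 and 0.277 FPKM in depleted lungs. Rgs16 had 0.828, 0.925 and 0.858 FPKM in control and 0.240, 0.653 and 0.469 FPKM in depleted lungs, without overlap. Several RGS genes that were near 0 in sorted neutrophils were present in whole lung: Rgs10 had 10.4 to 11.0 FPKM and Rgs12 7.02 to 8.26 FPKM in control lungs. None of the 7 genes of the other RGS list that were tested was called after depletion.

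Other genes of the pathway were counted in lists. Of 16 chemoattractant receptors tested between lung and PB, 9 were called, 3 higher and 6 lower in lung (27.2% of all genes were called). Cxcr2, the main receptor for neutrophil-attracting CXC chemokines, had 258 ± 2.79 FPKM in lung and 1001 ± 49.0 FPKM in PB (log2 fold change of -1.95, SE 0.055). S1pr4, a sphingosine 1-phosphate receptor, also fell (-2.72, SE 0.116), and its relative S1pr2 rose (1.82, SE 0.080). Ccrl2, an atypical receptor that binds chemerin without G protein signalling, had the largest rise of the list, from 92.6 ± 4.66 FPKM in PB to 1109 ± 22.9 FPKM in lung (3.57, SE 0.056).

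Of 7 G alpha genes tested between lung and PB, 1 was called, Gna11, lower in lung (0.369 and 2.95 FPKM). None of 7 G beta and gamma genes was called. Among all genes tested in that comparison 27.2% were called, 19.5% of them all being lower in lung. Gnai2, which encodes the main Gi subunit of neutrophils, had 578 ± 7.86 FPKM in lung and 965 ± 120 FPKM in PB (-0.73, SE 0.086, not called). The list medians were -0.51 for G alpha and -0.63 for G beta and gamma, beside -0.54 for all genes. Between lung and BM, 3 of 8 G alpha genes were called, all lower: Gna15 (0.267 FPKM in lung and 18.3 FPKM in BM), Gna12 (3.37 and 10.7 FPKM) and Gna11 (0.369 and 2.57 FPKM), in a comparison where 36.0% of all genes were called lower. Gna11 lies under the level set for naming genes and was added after its values were seen. In the same comparison Gngt2, a G gamma gene, was called higher (1.33, SE 0.051).

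Among the G beta gamma effectors 2 of 7 were called between lung and PB and 5 of 7 between lung and BM, all lower in lung (19.5% and 36.0% of all genes were called lower). Pik3cg, the catalytic subunit of phosphoinositide 3-kinase gamma, went from 33.0 ± 1.08 FPKM in PB to 12.1 ± 0.0596 FPKM in lung (-1.38, SE 0.053), and its regulatory subunit Pik3r5 from 131 ± 14.8 to 56.5 ± 0.734 FPKM (-1.20, SE 0.083). The list medians were -0.95 against PB and -1.63 against BM, beside -0.54 and -0.70 for all genes. Between genotypes in lung none of 5 effectors tested was called by limma, where 0.995% of all genes were called. Prex1, a Rac exchange factor driven by G beta gamma, came closest, with 19.7 ± 0.209 FPKM in WT and 38.5 ± 0.578 FPKM in cKO (-0.93, SE 0.047).

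Receptor kinases and arrestins end G protein signalling by uncoupling the receptor. None of their 6 genes tested was called between lung and PB, where 27.2% of all genes were called. The list median was -0.56 beside -0.54 for all genes. Arrb2, which encodes beta-arrestin 2, was called lower in lung than in BM, with 144 ± 1.39 against 539 ± 16.6 FPKM (-1.89, SE 0.025). Of 5 other G protein regulators tested between lung and PB, 3 were called, 1 higher and 2 lower, beside 7.75% of all genes called higher and 19.5% lower. The higher gene was Gpsm1, a GoLoco protein with 4.70 FPKM in lung and 1.01 FPKM in PB, named after its values were seen. The lower genes were Ric8a, a chaperone of G alpha subunits (-1.19, SE 0.049), and Gpsm3, another GoLoco protein (-1.01, SE 0.073).

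Rgs1 and Rgs2 are known to be induced by cell stimulation, and the list of immediate early genes moved between the tissues as well. Of 18 tested between lung and PB, 7 were called higher and 2 lower in lung (Jun and Ier2). Among all genes 7.75% were called higher and 19.5% lower. The list median was 0.56, beside -0.54 for all genes. Rgs1 was higher in lung than in PB, whereas Rgs2 was lower. Between lung and BM 16 of 18 were called, all higher in lung (median 2.65, beside 9.86% of all genes called higher), and between PB and BM 13 of 15, all higher in PB (median 2.61, beside 7.85%). Dusp2 had 0.654 FPKM in BM, 16.4 FPKM in PB and 331 FPKM in lung, the same tissue order as Rgs1. Summed over the list, the levels were 2000 to 2027 FPKM in BM, 9934 to 11060 FPKM in PB and 11450 to 11610 FPKM in lung. None of the 17 genes tested was called between genotypes in lung, where 0.995% of all genes were called. The list median there was -0.01, beside -0.09 for all genes. In PB none of 14 was called, with a list median of 0.31 beside -0.02. The list summed to 21070 to 21330 FPKM in lung WT and 18130 to 18490 FPKM in lung cKO. In PB it summed to 20120 to 20520 FPKM in WT and 17070 to 18210 FPKM in cKO. Cells were isolated from PB and lung with a negative selection kit before sorting. The paper's tissue processing included an enzyme digestion for lung, and none is described for PB. The part of handling in these levels, and in the lung against PB values of the members, was not tested.

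The genes most like each member were found by Pearson correlation over the 17 sorted libraries, on log2(FPKM + 1) centred within each experiment, among 6228 genes with a mean of at least 5 FPKM in a group. The libraries fall into 7 groups and share the scaling of their tables, so these values only describe the likeness of patterns. For Rgs1 they were Smox (r = 0.993), Relb (0.992) and Tpm4 (0.991). For Rgs2 they were Xbp1 (r = 0.996), Usp18 (0.995) and Dedd2 (0.995). The genes closest to Rgs3 were Nfatc1 (0.990), Fam65b (0.989) and St8sia4 (0.987), and those closest to Rgs14 were Kctd11 (0.997), Arhgap9 (0.996) and Cdkn2d (0.995). Rgs18 was closest to Mettl9, Fbxo9 and Rps6ka1 (0.995 each), and Rgs19 to Sp3 (0.997), Mfsd14a (0.996) and Asb7 (0.996). Relb, a subunit of NF-kB, had 5.83 FPKM in BM, 13.1 FPKM in PB and 74.4 FPKM in lung. In the Piezo1 experiment its level was 61.5 FPKM in lung WT and 49.8 FPKM in lung cKO, a smaller step between genotypes than that of Rgs1.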

How the data were processed

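The authors trimmed reads with fastp, aligned them to mm10 with HISAT2, counted them with HTSeq and deposited FPKM per gene and library; tool versions are not given in the sources used here. The deposited tables of the Piezo1 experiment also hold a signal per group (mean size-factor-scaled counts), from which the scaling was checked, and the authors' own fold changes and p-values, which were not used. The methods name a VAHTS Universal V6 kit and the labels a SMARTER mRNA kit. Whole reads were recovered from FPKM in the 17 sorted libraries (100.0% of values whole) and not in whole lung, where depth is unknown. Limits from a count of 0 cover counting error only.

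Groups came from the labels. Each comparison was fitted over all genes with limma-trend (limma 3.58.1, R 4.3.3) on log2(FPKM + 1), which understates changes of low genes, among genes with FPKM of at least 1 in 3 libraries (2 where groups held 2), and adjusted after Benjamini-Hochberg. edgeR 4.0.16 and DESeq2 1.42.0 on recovered reads, rescaled FPKM, a pseudocount of 0.1, no filter, 1 fit over all groups, a replicate block and each library left out were alternatives. Tests were tested on simulated data. The 7 members, 8 other gene lists, 10 marker lists and motifs were chosen with earlier results of these data known. Genes named from lists have a mean of at least 5 FPKM in a group and rank by absolute fold change, at most 4 per list, besides genes whose role is described; likeness names 3 genes per member. Plots were made with Python 3.11.15 and matplotlib 3.10.9.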

Additional observations from a re-analysis of the deposited data

Results flagged for a closer look

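The difference between WT and Piezo1-cKO neutrophils was not the same in lung and PB for 3 members by the limma interaction term over the 8 libraries of the Piezo1 experiment. For Rgs1 the lung difference exceeded that in PB by 0.89 on the log2 scale, with the WT mean higher in both tissues. For Rgs3 the lung difference was lower than that in PB by a log2 value of -0.47, and for Rgs14 by -0.28, with the cKO mean higher in both tissues. Since 48.2% of all genes passed the same test, and the members were chosen with these libraries known, the values are descriptions. Rgs14 lost its call with DESeq2 (-0.18), and none of the 3 passed with an added log2 threshold of 1.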

How the results depend on the processing

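Over the alternatives, 663 of 733 fold changes of single members kept their direction and their side of the threshold. Scaling libraries by a median ratio or by size factors, which moves the median gene to about 0, reduced the members called between lung and BM from 5 to 3 (rescaled FPKM, edgeR with TMM or RLE, and DESeq2), and between lung and PB in WT and in cKO of the Piezo1 experiment from 6 to 3 (rescaled FPKM, edgeR with RLE, DESeq2), whereas edgeR with TMM called 5 in WT and 4 in cKO. Between lung and PB of the tissue comparison Rgs14 and Rgs18 lost their calls under each of these scalings, edgeR with TMM included (-0.85 to -0.74). Rgs3 between lung and BM reversed from -0.35 to 0.38 (rescaled FPKM), 0.39 (TMM), 0.44 (RLE) and 0.44 (DESeq2). With the adjusted p alone 6 members were called between genotypes in lung and 2 in PB. For the interaction 5 members were called with rescaled FPKM and with edgeR, and 0 with a threshold of 1. Leaving out 1 library, which in the Piezo1 experiment leaves a group with 1 library that is assumed to vary like the others, gave 5 to 6 calls in cKO lung against PB and 3 to 4 for the interaction (Rgs19 joined without PB cKO replicate 2). It reversed values near 0: Rgs19 between genotypes in PB ranged from -0.042 (without PB cKO replicate 1) to 0.060, and in whole lung Rgs18 from -0.133 to 0.031 and Rgs19 from -0.128 to 0.10 (0.032 with rescaled FPKM). Over all genes the calls ranged from 1380 to 6479 between lung and PB (2063 as reported), 2745 to 7628 between lung and BM (3777), 1781 to 6023 between PB and BM (1811), 53 to 3265 between genotypes in lung (64), 263 to 3607 in PB (265), 1572 to 6360 and 1526 to 6054 between lung and PB in WT (2429) and cKO (2212), 518 to 5509 for the interaction (3647) and 0 to 5 in whole lung (1), where leaving out 1 library gave 0 to 12. Libraries with the same replicate number showed no sign of pairing (correlations of deviations from -0.089 to 0.079). With so few libraries this does not show whether tissues came from the same mice. A fit with the replicate block left the count of members called as reported in every comparison, 6 between lung and PB among them. With 2 libraries per group the standard errors rest on variance shared across genes.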
